A study of Mus musculus with 8 samples.

Results

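The genes described here are 9 of the 48709 genes in the expression tables. They are *Fut2*, a fucosyltransferase of the epithelial surface, *Pigr*, the polymeric immunoglobulin receptor, the mucins *Muc1*, *Muc6*, and *Muc20*, the mucin chaperone *Agr2*, and the trefoil factors *Tff1*, *Tff2*, and *Tff3*. They were picked by name, with earlier results of these data known. *Fut2* was picked because an earlier look at these same libraries showed it high in WT mice with pancreatitis and low in the other groups, so its values are a description and carry no test. RNA-Seq was performed on whole pancreas of 8-week-old male mice, 24 hours after injection, with 2 libraries in each of 4 groups. WT mice received normal saline (WT saline) or palmitoleic acid (POA) and ethanol, the model of severe acute pancreatitis called FAEE-SAP (WT FAEE-SAP), and cKO mice, *Pfkfb3* fl/fl with *Pdx1*-Cre, received the same (cKO saline and cKO FAEE-SAP). The *Pdx1* promoter drives Cre in the pancreatic epithelium from early development on and is also active in parts of the stomach and duodenum. The WT mice were purchased and are not described as littermates or as carriers of Cre or of the floxed allele, so genotype and origin of the mice cannot be told apart. Nothing in the labels names the mice behind the libraries, so that the p-values measure the spread between these libraries.

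Mucous epithelia protect themselves with mucins, large proteins densely decorated with O-linked sugars that are either secreted as gel or anchored in the apical membrane. Trefoil factors are small, disulfide-rich peptides secreted together with mucins, and they aid the repair of epithelium. FUT2 adds fucose to the ends of sugar chains and so makes the H antigen that is displayed on gut mucosa, and PIGR carries polymeric IgA and IgM across epithelial cells into secretions. In the normal pancreas, ducts carry the membrane mucin MUC1, whereas gel-forming mucins are low.

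Reads per library were worked out from RPKM and exonic length and totaled 22934500 to 37752100. All values named "scaled RPKM" are the deposited RPKM divided by a factor per library, which ranged from 0.621 to 2.02 and was highest in the WT FAEE-SAP libraries. *Pfkfb3* itself was 0.880 to 2.10 scaled RPKM in the saline libraries and 1.74 to 3.21 in the FAEE-SAP libraries, with both genotypes overlapping in each, and a value for the whole gene does not measure the loss of the floxed exons. The tissue label is pancreas, and the digestive enzyme genes among the acinar markers were high in every library, at 134 to 103676 scaled RPKM. The acinar transcription factor genes were lower, at 1.71 to 39.6. The cKO saline replicate 1 library stood apart and is called the intestinal library for the transcripts it held. It held 164 reads of *Fabp1*, 201 of *Fabp2*, 285 of *Alpi*, 136 of *Sis*, and 304 of *Apoa1*, genes of absorptive intestinal epithelium, of which no other library held more than 4 reads. Of 18 measured gastric and intestinal markers, 11 were highest in this library, and their sum was 43.2 scaled RPKM there and 1.16 to 3.38 in the other 7 libraries. The gastric genes *Gkn1*, *Gkn2*, and *Lipf* were at 0 in every library, this one included, whereas *Gkn3*, another gastric gene, held 151 reads in it and 0 to 15 elsewhere, and *Pgc*, pepsinogen C, held 7 reads in it and 0 to 5 elsewhere. The share of these transcripts in the members' levels was not tested, and the contrasts of the tested members that include this library are given with and without it.

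**Figure D1:**
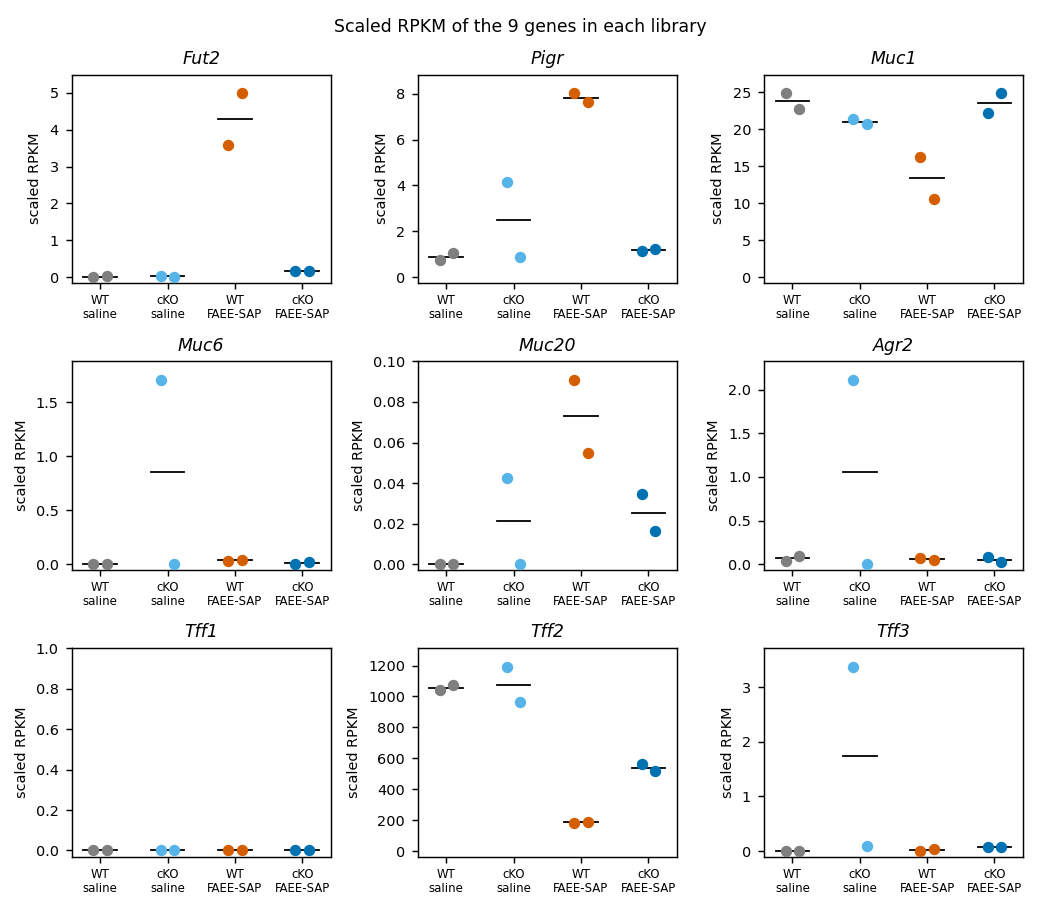
Scaled RPKM (vertical axis, linear, a separate range for each gene) of the 9 genes in each of the 8 libraries; points are libraries and short lines are means of 2. *Fut2* and *Pigr* were highest in the WT FAEE-SAP libraries and *Tff2* and *Muc1* lowest there, while *Tff3*, *Muc6*, and *Agr2* were high in the cKO saline replicate 1 library alone and *Tff1* was 0 throughout.

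The 9 genes spanned the whole range of expression. By mean RPKM, a scale per gene length, *Tff2* ranked 45 of 48709 genes and *Muc1* ranked 442. *Pigr* ranked 2297 and *Fut2* ranked 4735, and the other 5 ranked 11358 or lower. A test needed an RPKM, as deposited, of 0.5 or more in no fewer than 2 of the libraries compared. *Tff2*, *Muc1*, and *Pigr* met this in every comparison, being above the minimum in all 8 libraries. *Fut2* met it only through the WT FAEE-SAP libraries, and *Tff1*, *Tff3*, *Muc6*, *Muc20*, and *Agr2* met it in no comparison.

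*Fut2* (ENSMUSG00000055978, GRCm38 chr7:45648591-45666394, minus strand) was almost silent after saline and was present in WT mice with FAEE-SAP. It was 0 and 0.0347 scaled RPKM in WT saline and 0.0468 and 0.0131 in cKO mice after saline, which is 0, 3, 4, and 1 reads. In WT FAEE-SAP it was 3.59 and 4.99 scaled RPKM, from 608 and 1154 reads. In cKO FAEE-SAP it was 0.161 and 0.173, from 17 and 19 reads. Both WT FAEE-SAP libraries lay above every other library, both cKO FAEE-SAP libraries lay above all 4 saline libraries, and the saline libraries of the genotypes overlapped. In order of mean level, WT FAEE-SAP (4.29 ± 0.991, SD, n = 2) was followed by cKO FAEE-SAP (0.167 ± 0.0080), cKO saline (0.0300 ± 0.0238), and WT saline (0.0174 ± 0.0246), and the last 2 did not differ beyond their spread. The ratio of summed, scaled reads was 237 between WT FAEE-SAP and WT saline, whose 3 reads leave it anywhere between 81.0 and 1151 (95% exact counting interval). It was 5.40 between cKO FAEE-SAP and cKO saline and 26.3 between WT FAEE-SAP and cKO FAEE-SAP. The cKO saline reads were 5, of which 4 came from the intestinal library, and without it, an alternative chosen after seeing the data, the cKO ratio rests on 1 saline read and was 12.7 (2.14 to 517). The intervals cover counting error alone, not the spread between mice, and they test nothing, since these are the contrasts for which the gene was picked. *Fut2* RPKM moved in steps 1.49 times as large as the exonic length predicts, and each step was taken as 1 read. The sum of the gastric and intestinal markers was 1.51 and 1.34 scaled RPKM in WT FAEE-SAP, and their part in the level of *Fut2* was not tested.

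Beside *Fut2* on chromosome 7 lie the other members of its small family. *Sec1*, a paralog, lies 11.3 kb away, and *Fut1*, 27.5 kb away on the opposite side of *Fut2*, makes the H antigen of other tissues. *Sec1* held 0 and 0 reads in WT saline, 0 and 1 in cKO mice after saline, 2 and 9 in WT mice with FAEE-SAP, and 2 and 2 in cKO mice with FAEE-SAP. *Fut1* held 18, 101, 171, 24, 96, 57, 203, and 10 reads in the same order, and the libraries of each group overlapped with those of every other group. Transcripts of *Fut2* and *Sec1* share an exact run of 180 bases, so reads of this stretch cannot be assigned to 1 of them, whereas *Fut2* and *Fut1* share at most 24 bases.

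Of 18 measured genes of fucose metabolism and transfer, 14 were tested between the FAEE-SAP groups and none was called, and none of the 11 tested between the saline groups was called. Of all genes tested, 1.27% and 0% were called in these contrasts. With FAEE-SAP against saline in WT mice, 1 of 14 was called, a share near the 6.93% of all genes tested. It was *Fuca2*, a secreted fucosidase, which was 2.74 and 2.07 scaled RPKM in WT saline and 0.955 and 0.940 in WT mice with FAEE-SAP (log2 fold change −1.27, adjusted p = 0.0373, limma). That call held in 6 of 14 alternatives, over which the change ranged from −1.49 to −0.013. The list's median log2 fold change was −0.29, against 0.02 over all genes tested. *Tsta3*, which makes the donor GDP-fucose, was 12.4 to 15.5 scaled RPKM over the 8 libraries, and its genotype difference with FAEE-SAP was 0.07 on the log2 scale (adjusted p = 0.893). *Slc35c1*, the Golgi carrier of GDP-fucose, was 3.19 and 4.28 in WT mice with FAEE-SAP and 1.86 to 2.44 in the other 6 libraries. The WT FAEE-SAP libraries did not overlap with the rest, but the rise of 0.89 (adjusted p = 0.0708) did not pass the test.

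*Pigr* (ENSMUSG00000026417, GRCm38 chr1:130826684-130852249, plus strand) rose with FAEE-SAP in WT mice and was lower in cKO mice with FAEE-SAP. It was 0.734 and 1.05 scaled RPKM in WT saline, 4.13 and 0.880 in cKO mice after saline, 8.03 and 7.61 in WT mice with FAEE-SAP, and 1.15 and 1.21 in cKO mice with FAEE-SAP. The WT FAEE-SAP libraries were above all others, and the next highest was the cKO saline library with the intestinal transcripts. All libraries other than those 3 lay between 0.734 and 1.21. On the scale of log2(scaled RPKM + 0.1), the rise in WT mice was 3.04 (SE 0.24, adjusted p = 0.0036 by the Benjamini-Hochberg method in limma) and the cKO minus WT difference with FAEE-SAP was −2.67 (SE 0.20, adjusted p = 0.0152). The rise was not called without WT FAEE-SAP replicate 2 (adjusted p = 0.0698, the highest of 15 alternatives). Leaving out either WT FAEE-SAP library ended the genotype call (adjusted p = 0.106 and 0.139; range over 14 alternatives 0.0071 to 0.139), with the difference at −2.62 and −2.69. It was also lost without the RPKM filter (0.0762) and with all 8 libraries in 1 model (0.0640), and so held in 10 of 14 alternatives. In cKO mice the change with FAEE-SAP was −0.64 (SE 0.70, adjusted p = 0.777), and without the intestinal library it was 0.41 (adjusted p = 0.802), the opposite direction. Likewise the saline difference between genotypes was 1.01 (SE 0.70, adjusted p = 0.999) with that library and −0.02 without it. The genotype-by-treatment interaction of −3.68 (SE 0.83) was not called (adjusted p = 0.196), and was −2.64 without that library (adjusted p = 0.106). It was called without cKO saline replicate 2 (−4.76, adjusted p = 0.0244) and as deposited (−4.35, adjusted p = 0.0432), over a range of 0.0244 to 0.468 in 18 alternatives.

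The promoter of *Pigr* is shown because it is the member that was called in both contrasts with an entry in the promoter table. Capitals mark the only match, on either strand, to the STAT-type motif TTCNNNGAA, which lies 39 bases after the start and which 8.30% of 32841 RefSeq promoters of this length hold. The match is a description of the letters and no binding was measured. Sequence from RefSeq, GRCm38.p6, chr1:130826434-130826733, plus strand, 300 bases.
Pigr: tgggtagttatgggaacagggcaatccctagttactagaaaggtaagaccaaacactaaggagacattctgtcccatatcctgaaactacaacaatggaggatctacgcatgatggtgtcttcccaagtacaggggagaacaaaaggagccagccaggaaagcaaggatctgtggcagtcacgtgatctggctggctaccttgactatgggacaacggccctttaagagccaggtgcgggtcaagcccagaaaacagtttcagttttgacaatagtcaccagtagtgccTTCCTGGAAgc

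For the cargo of this receptor, only transcripts of immunoglobulin chains were measured, not IgA or IgM protein. *Igha*, the IgA heavy chain, was 7.11 and 7.24 scaled RPKM in WT saline, 6.22 and 9.51 in cKO mice after saline, 6.49 and 8.01 in WT mice with FAEE-SAP, and 18.7 and 20.3 in cKO mice with FAEE-SAP. It was thus higher in cKO than in WT mice with FAEE-SAP (log2 1.41, adjusted p = 0.0451), a call that held in 6 of 14 alternatives, over which the difference ranged from 0.459 to 1.57. *Jchain*, which joins IgA into dimers, was 3.29 and 2.58 in WT mice with FAEE-SAP and 12.7 and 6.88 in cKO mice with FAEE-SAP and was not called. *Ighm*, the IgM heavy chain, was 24.8 and 23.6 in WT mice with FAEE-SAP and 74.8 and 22.6 in cKO mice with FAEE-SAP and was not called either. *Igha* was 1 of 4 tested genes of this list to be called in that contrast, in which 1.27% of all genes tested were called, and no gene of the list was called in the other 3. Of the cytokines and receptors known to act upstream of *Fut2* and *Pigr*, 5 of 12 were tested and none was called in any contrast, where 0% to 6.93% of all genes tested were called. *Il22*, *Il17a*, *Il17c*, and *Il13* were at 0 in all 8 libraries. *Il22ra1*, the epithelial receptor chain for IL-22, was 10.4 to 20.4 scaled RPKM after saline, 4.95 and 8.45 in WT mice with FAEE-SAP, and 7.43 and 13.5 in cKO mice with FAEE-SAP. In the other direction, *Il10rb* was 3.90 and 4.09 in WT FAEE-SAP and 2.71 to 3.12 in every other library. *Il17ra* was 1.25 and 1.86 in WT FAEE-SAP and 0.680 to 1.05 in every other library. Of the 5 tested, 3 had a positive and 2 a negative change with FAEE-SAP in WT mice.

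*Muc1* (ENSMUSG00000042784, GRCm38 chr3:89229057-89233381, plus strand), the membrane mucin of ducts and acini, was the most abundant mucin. It was 24.9 and 22.7 scaled RPKM in WT saline, 21.3 and 20.6 in cKO mice after saline, 16.2 and 10.6 in WT mice with FAEE-SAP, and 22.2 and 24.8 in cKO mice with FAEE-SAP. Only the WT FAEE-SAP libraries lay below 20, and they did not overlap with any other group. The differences did not pass the test, at −0.86 (SE 0.24, adjusted p = 0.0864) with FAEE-SAP in WT mice and 0.83 (SE 0.25, adjusted p = 0.174) between the FAEE-SAP genotypes. The difference was −0.21 (SE 0.16, adjusted p = 0.999) between saline groups and 0.19 (SE 0.16, adjusted p = 0.715) with FAEE-SAP in cKO mice, and −0.23 and 0.22 without the intestinal library. The direction of the first pair also depended on the scaling. As deposited, *Muc1* was 18.1 and 19.7 RPKM in WT saline and 32.7 and 20.6 in WT mice with FAEE-SAP, and the 2 differences became 0.46 and −0.13, on a scale on which the median of all genes shifted by 1.24 and −0.91. Its promoter carries the only TATAAA among the 5 members with an entry, 31 bases before the start, a motif found in 13.6% of the promoters, and is shown with it in capitals (RefSeq, GRCm38.p6, chr3:89228806-89229105, plus strand).
Muc1: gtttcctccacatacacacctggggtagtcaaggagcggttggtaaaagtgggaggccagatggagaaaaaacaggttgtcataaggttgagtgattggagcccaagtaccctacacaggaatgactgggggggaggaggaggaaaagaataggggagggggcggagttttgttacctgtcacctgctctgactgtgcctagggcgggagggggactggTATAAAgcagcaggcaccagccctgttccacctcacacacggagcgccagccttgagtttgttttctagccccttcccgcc

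*Muc6* and *Muc20* were close to the limit of detection. *Muc6*, the gel-forming mucin of gastric and duodenal glands (GRCm38 chr7:141633456-141655319, minus strand), held 375 reads in the intestinal library and 1 in the other cKO saline library. It held 0 and 0 reads in WT saline, 13 and 23 in WT mice with FAEE-SAP, and 0 and 5 in cKO mice with FAEE-SAP, where 3 reads correspond to 0.0085 to 0.0140 RPKM. Outside that library, both WT FAEE-SAP libraries were thus above all others, at 0.0299 and 0.0388 scaled RPKM. *Muc20*, a membrane mucin (GRCm38 chr16:32777419-32797435, minus strand), had 17 and 14 reads in WT FAEE-SAP, 4 and 2 in cKO mice with FAEE-SAP, 4 and 0 in cKO mice after saline, and 0 and 0 in WT mice after saline. The WT FAEE-SAP libraries were again the highest, at 0.0909 and 0.0549 scaled RPKM, and did not overlap with the rest. Neither gene was tested at this depth.

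Among 12 other measured mucins, only endomucin (*Emcn*), an endothelial sialomucin, was abundant enough for a test, and it was not called, at 0.354 to 0.591 scaled RPKM over all libraries. *Muc2*, *Muc3*, and *Muc13*, mucins of the intestine, held 31, 48, and 95 reads in the intestinal library. Elsewhere they held at most 4, 2, and 21, and the 21 reads of *Muc13* were in WT FAEE-SAP replicate 2. *Muc5ac* and *Muc5b*, the gel-forming mucins of gastric surface and airway, did not exceed 0.0039 scaled RPKM in any library.

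*Agr2* (GRCm38 chr12:35992907-36004087, plus strand), the disulfide isomerase that folds mucins, held 64 reads in the intestinal library, 0 in the other cKO saline library, and 1 to 4 reads in each of the remaining 6. Their range was 0.0257 to 0.0982 scaled RPKM, and groups overlapped. No group stood apart outside that library. Of 14 measured genes of mucous secretory cells, 5 were tested with FAEE-SAP against saline in WT mice and 3 were called, against 6.93% of all genes tested. *Zg16*, a lectin that mucous cells and acinar zymogen granules both contain, was 7224 and 5744 scaled RPKM in WT saline, 8143 and 7887 in cKO mice after saline, 1053 and 755 in WT mice with FAEE-SAP, and 4439 and 5148 in cKO mice with FAEE-SAP. It fell in WT mice by 2.86 on the log2 scale (adjusted p = 0.0034) and was higher by 2.41 in cKO than in WT mice with FAEE-SAP (adjusted p = 0.0156). *Creb3l1*, a transcription factor of the secretory pathway, fell by 1.51 (adjusted p = 0.0183) and was higher by 1.78 (adjusted p = 0.0419), calls that held in 9 of 15 and 6 of 14 alternatives. Over these its change in WT mice ranged from −1.65 to −0.231 and its genotype difference from 0.843 to 1.97. The calls of *Zg16* held in 14 of 15 and 11 of 14, with ranges of −3.10 to −1.54 and 1.36 to 2.65. *Cxcl17*, a mucosal chemokine, was at 0 in the 4 saline libraries, 0.906 and 1.31 in WT mice with FAEE-SAP, and 0.0455 and 0.218 in cKO mice with FAEE-SAP, so that it reached the RPKM minimum only through the group where it was high and its call is no support. The median of the list was −0.52 with FAEE-SAP in WT mice and −0.20 over the 6 genes tested between the FAEE-SAP genotypes, of which 2 were called, both higher, against 1.27% of all genes tested. *Spdef* and *Foxa3*, which drive the program in goblet cells, were tested in every contrast and never called. *Clca1* and *Fcgbp*, products of goblet cells, held 116 and 317 reads in the intestinal library and at most 0 and 52 elsewhere.

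**Figure D2:**
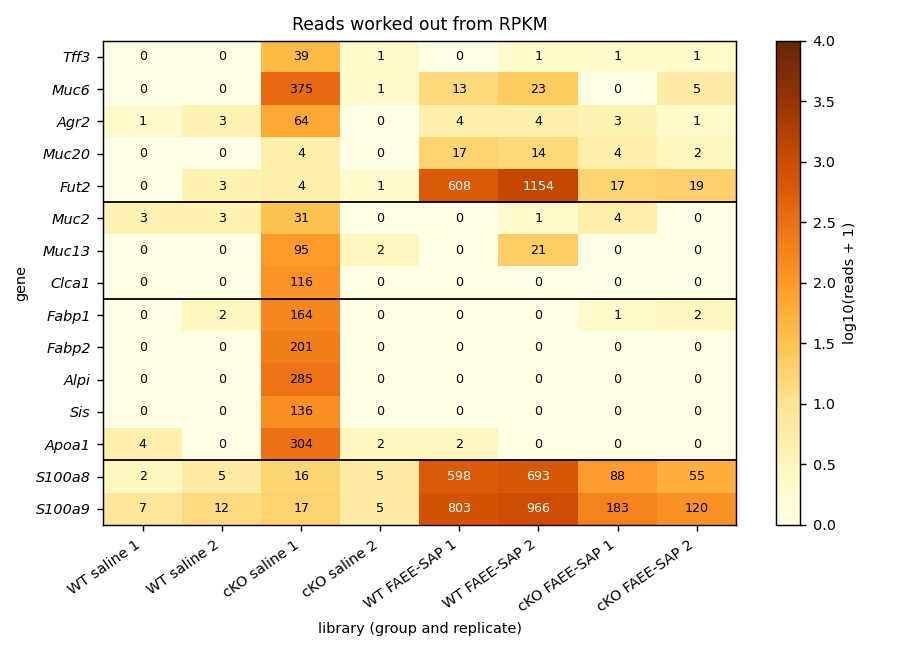
Reads worked out from RPKM for 5 of the 9 genes (top), 3 other genes of mucous cells, 5 genes of absorptive intestine, and 2 neutrophil genes (bottom) in each library; color gives log10(reads + 1) and the number is the read count. *Tff3*, *Muc6*, and *Agr2* share the column of cKO saline replicate 1 with the intestinal genes, whereas *Fut2* and *Muc20* share the WT FAEE-SAP columns with *S100a8* and *S100a9*.

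*Tff2* (ENSMUSG00000024028, GRCm38 chr17:31141049-31144282, minus strand), the trefoil peptide of gastric gland mucus, was by far the highest of the 9 genes per length. It was 1042 and 1071 scaled RPKM in WT saline, 1193 and 961 in cKO mice after saline, 184 and 187 in WT mice with FAEE-SAP, and 561 and 517 in cKO mice with FAEE-SAP. The 4 groups fell into 3 levels without overlap, with the saline libraries of both genotypes highest and overlapping, then cKO FAEE-SAP, then WT FAEE-SAP. Means were 1057 ± 20.8 (SD, n = 2) in WT mice after saline, 1077 ± 164 in cKO mice after saline, 186 ± 1.94 in WT mice with FAEE-SAP, and 539 ± 30.6 in cKO mice with FAEE-SAP. In WT mice *Tff2* fell by 2.51 on the log2 scale (SE 0.13, adjusted p = 0.0020), a call lost without WT FAEE-SAP replicate 2 (0.0536, the highest of 15 alternatives). With FAEE-SAP it was 2.88-fold higher in cKO than in WT mice (log2 1.53, SE 0.15, adjusted p = 0.0184). The difference in cKO mice of −0.96 (SE 0.18, adjusted p = 0.290), that between saline groups of −0.01 (SE 0.17, adjusted p = 0.999), and the interaction of 1.52 (SE 0.21, adjusted p = 0.0740) were not called. Without the intestinal library these were −0.80, −0.16, and 1.66 and were not called either. The interaction was called with quantile normalization (adjusted p = 0.0468), at an RPKM minimum of 2 (0.0383), and with the crossed replicate block, which was chosen after seeing the data (0.0333), over a range of 0.0333 to 0.282 in 18 alternatives. The genotype call was lost without either WT FAEE-SAP library (adjusted p = 0.133 and 0.178) and without cKO FAEE-SAP replicate 1 (0.0504). It was also lost without the RPKM filter (0.131), without the intensity trend (0.0608), and as deposited, and so held in 8 of 14 alternatives, over a range of 0.0065 to 0.178, while the difference stayed within 1.49 to 1.56 when a library was left out. The deposited RPKM of *Tff2* with FAEE-SAP were 373 and 362 for WT and 587 and 505 for cKO mice, a smaller difference of 0.57. The fall in WT mice was also smaller as deposited, at −1.19, on a scale on which the median of all genes shifted by 1.24.

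The other trefoil genes lie on both sides of *Tff2*, 11.4 kb and 17.1 kb away on chromosome 17, and share no run of more than 14 bases with its transcript. *Tff1*, the peptide of gastric surface mucus, had 0 reads in all 8 libraries, where 3 reads correspond to 0.113 to 0.186 RPKM. *Tff3*, the peptide of intestinal goblet cells, had 39 reads (3.37 scaled RPKM) in the intestinal library and 0 or 1 in each of the other 7. The gene of this cluster that was expressed in these pancreata was therefore *Tff2*, and *Tff2* was 1193 scaled RPKM in the intestinal library and 961 to 1071 in the other 3 saline libraries.

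Leaving *Fut2* aside, 3 of 8 members could be tested in each contrast. These members were also chosen with earlier results of these data known, so the counts called beside the shares of all genes are a description. Between the FAEE-SAP genotypes 2 of them were called, *Tff2* higher and *Pigr* lower in cKO mice, where 1.27% of the 11008 genes tested were called, 0.863% higher and 0.409% lower. With FAEE-SAP against saline in WT mice 2 were called, *Tff2* lower and *Pigr* higher, against 6.93% of 10894 genes, 3.08% higher and 3.86% lower. These contrasts share the WT FAEE-SAP libraries, so that their opposite signs are not separate observations. In cKO mice none was called (*Tff2* had an unadjusted p of 0.0034), against 0.0531% of 9423 genes, and for the interaction none was called, against 0.0719% of 11133 genes, 0.0449% with a positive and 0.0269% with a negative difference. Between the saline groups none was called and 0% of the 8715 genes tested were called in limma, with 187 at an unadjusted p under 0.05 and 0 called by voom on worked-out reads. The cKO minus WT differences with FAEE-SAP were −4.19 for *Fut2*, given without a test, −2.67 for *Pigr*, 0.83 for *Muc1*, and 1.53 for *Tff2*.

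**Figure D3:**
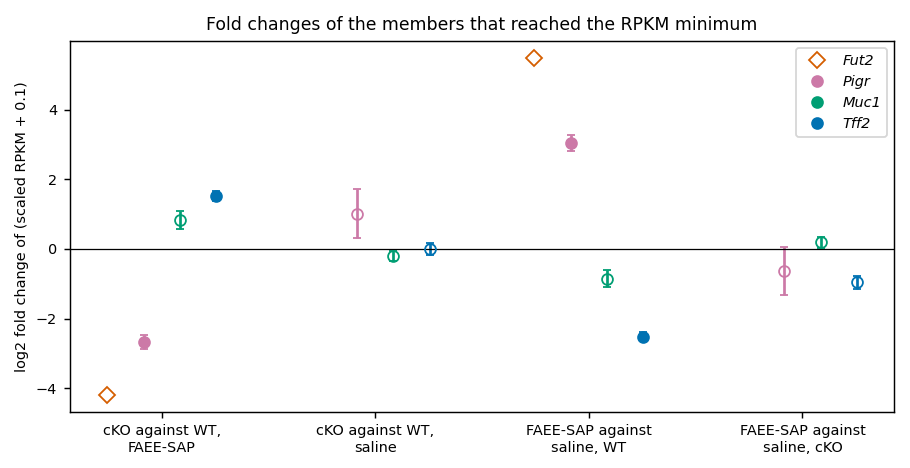
Log2 fold change of (scaled RPKM + 0.1) of the 4 genes that reached the RPKM minimum, in the 4 pairwise contrasts; bars are SE from limma, filled circles passed the test, and *Fut2* (open diamonds) is shown without error or test, only where it reached the minimum. The signs with FAEE-SAP in WT mice and those between FAEE-SAP genotypes are opposite for each gene, and the contrasts share the WT FAEE-SAP libraries.

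Markers of some cell types moved with the same groups, and in whole tissue fewer cells of a type and less RNA per cell cannot be told apart. The sum of 13 duct markers was 327 and 383 scaled RPKM in WT FAEE-SAP, 188 and 241 in cKO mice with FAEE-SAP, and 131 to 142 after saline, with none at 0. Of these, 5 of the 11 tested were called higher with FAEE-SAP in WT mice, where 3.08% of all genes tested were called higher and 3.86% lower, and 1 of the 5, *Cldn4*, met the RPKM minimum only through the WT FAEE-SAP libraries. In contrast, *Cftr*, the duct chloride channel, was 0.0194 and 0.0142 in WT mice with FAEE-SAP and 0.0617 to 0.203 after saline. The sum of 8 neutrophil markers was 58.6 and 53.1 in WT mice with FAEE-SAP, 19.8 and 12.5 in cKO mice with FAEE-SAP, and 1.27 to 3.72 after saline, with *Mpo* and *Elane* at 0 in WT mice with FAEE-SAP. The 5 neutrophil genes tested in WT mice met the RPKM minimum only through the WT FAEE-SAP libraries, so that their calls are no support. Between the FAEE-SAP genotypes 2 of 5, *S100a8* and *Retnlg*, were called lower in cKO mice, where 0.409% of all genes tested were called lower. The sum of 12 acinar markers was 63285 and 66467 in WT mice with FAEE-SAP, 161723 and 178211 in cKO mice with FAEE-SAP, and 207590 to 284428 after saline, with 11 of 12 called lower in WT mice and 6 of 12 called higher in cKO than in WT mice with FAEE-SAP, where 0.863% of all genes tested were called higher. The sum of 7 islet markers was 181 and 239 in WT mice with FAEE-SAP, 428 and 450 in cKO mice with FAEE-SAP, and 285 to 372 after saline, with 3 of 7 called higher in cKO than in WT mice with FAEE-SAP and 2 of 7 lower with FAEE-SAP in WT mice. The sum of 8 macrophage markers was 81.0 and 109 in WT mice with FAEE-SAP, 108 and 124 in cKO mice with FAEE-SAP, and 72.9 to 90.4 after saline. Of the 8, 1 was called, *Cd14*, a coreceptor for bacterial lipopolysaccharide. *Cd14* was called higher with FAEE-SAP in WT mice and lower in cKO than in WT mice with FAEE-SAP, where 3.08% and 0.409% of all genes tested were called in these directions. With FAEE-SAP it was 14.3 and 12.6 scaled RPKM in WT and 2.40 and 2.74 in cKO mice, against 1.02 to 2.53 after saline. Most macrophage markers went the other way between the FAEE-SAP genotypes, 6 with a positive and 2 with a negative difference, at a median of 0.55. The sum of 9 lymphoid markers was 12.6 and 15.5 in WT mice with FAEE-SAP, 6.78 and 18.3 in cKO mice with FAEE-SAP, and 7.80 to 23.3 after saline. The sum of 6 mesothelium markers was 1.16 and 1.28 in WT mice with FAEE-SAP and 1.93 to 5.50 in the other groups. *Fut2* and *Pigr* were thus highest where duct and neutrophil sums were highest, and *Tff2*, *Muc1*, and *Zg16* were lowest where the acinar sum was lowest. The part of these cell types in the members' levels was not tested.

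The enzymes that build O-linked sugars on mucins were followed as a list. Of 32 measured, 24 were tested between the FAEE-SAP genotypes and none was called, where 1.27% of all genes tested were called. With FAEE-SAP in WT mice 3 of 22 were called, where 6.93% of all genes tested were called. *Gcnt1*, which makes core branches, was 1.69 and 1.28 scaled RPKM in WT saline and 0.259 and 0.266 in WT mice with FAEE-SAP (−2.18, adjusted p = 0.0115). *Gcnt2*, the I-branching enzyme, was 0.227 and 0.372 and then 0.845 and 1.35 on the same scale, and *B3gnt3*, which extends chains, was 0.697 and 0.470 and then 1.79 and 1.46. Both met the RPKM minimum only through the WT FAEE-SAP libraries, so their calls are no support. The call of *Gcnt1* held in 12 of 14 alternatives, and those of *Gcnt2* and *B3gnt3* in 5 of 14 and 4 of 15. In cKO FAEE-SAP the same genes were 0.988 and 0.702, 0.467 and 0.391, and 0.816 and 0.629. The list's median log2 fold change was −0.13 with FAEE-SAP in WT mice and 0.28 between the FAEE-SAP genotypes, against 0.02 and −0.01 over all genes tested.

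**Figure D4:**
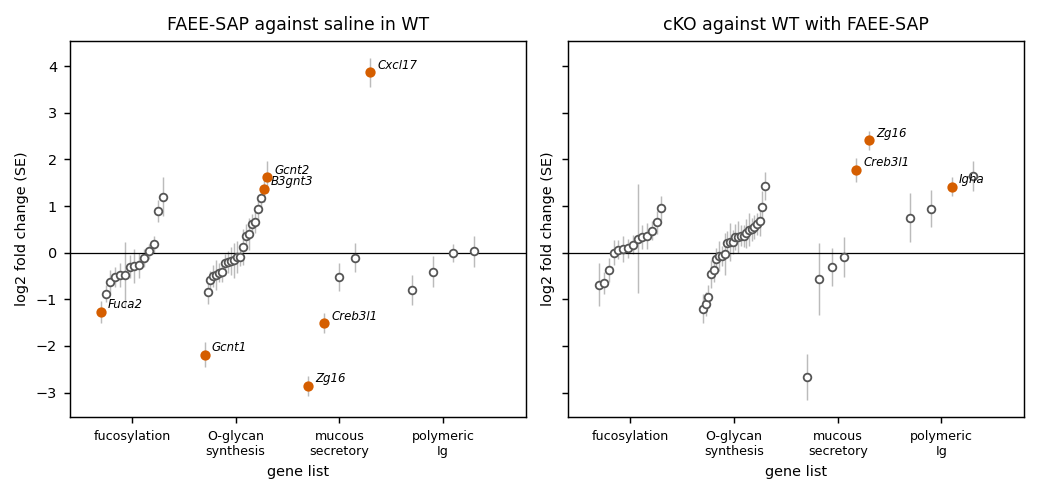
Log2 fold changes (vertical axis, with SE) of the tested genes of 4 related lists, sorted within each list, with FAEE-SAP against saline in WT mice (left) and cKO against WT with FAEE-SAP (right); filled, named points passed the test, of which *Cxcl17*, *Gcnt2*, and *B3gnt3* met the RPKM minimum only through the WT FAEE-SAP libraries. Between the FAEE-SAP genotypes, where 1.27% of all genes tested passed, no gene of fucosylation or O-glycan synthesis did, and *Zg16*, *Creb3l1*, and *Igha* did.

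The genes whose pattern was most like that of each member above the RPKM minimum were ranked by Pearson r of log2(scaled RPKM + 0.1) over the same 8 libraries among 11133 genes, as a description. For *Fut2* they were *Leprot* (r = 0.995), *Il1rn*, the interleukin-1 receptor antagonist (0.995), *Cttn*, cortactin (0.993), *4930539E08Rik* (0.991), and *Cxcl2*, a neutrophil chemokine (0.985). *Il1rn* was 0.0154 to 0.0684 scaled RPKM after saline, 1.32 and 1.54 in WT mice with FAEE-SAP, and 0.189 and 0.138 in cKO mice with FAEE-SAP. For *Tff2* they were *Lrp6* (0.998), *Prdx4* (0.996), *Tarsl2* (0.996), *Rpl3* (0.994), and *Erp27* (0.993), of which *Prdx4* and *Erp27* encode proteins of the endoplasmic reticulum. *Prdx4* was 38.7 to 49.8 after saline, 8.80 and 9.95 in WT mice with FAEE-SAP, and 24.9 and 23.2 in cKO mice with FAEE-SAP. For *Muc1* they were *Cckar*, the cholecystokinin receptor of acinar cells (0.987), *Ppp1r1b* (0.983), *Wdr11* (0.981), *Cacna1d* (0.980), and *Dap* (0.979). For *Pigr* they were *Erlin2* (0.974), *Galnt3*, which starts O-glycans (0.964), *Fcor* (0.962), *Osr1* (0.948), and *Arf4* (0.947). *Galnt3* was 2.48 and 3.20 in WT mice with FAEE-SAP, 2.28 in the intestinal library, and 0.996 to 1.496 in the other 5. All these libraries share 4 groups, so a pattern set by 1 group gives a high r.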

How the data were processed

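Pancreas RNA-Seq libraries were grouped by the genotype and treatment in the labels. The authors deposited 1 RPKM value per gene and library. Submitters' notes name fastp and GRCm38.p6, and the study's methods name CLC Genomics Workbench for mapping. How reads of several matches were counted is not given in the sources used here. RPKM were divided by median-of-ratios factors, over all 8 libraries for the levels and within each contrast for the tests. Genes with RPKM of at least 0.5 in at least 2 libraries were tested on log2(scaled RPKM + 0.1) with an intensity trend (limma 3.58.1, R 4.3.3), the 2 groups compared in each fit (all 4 for the interaction), and Benjamini-Hochberg adjustment over all genes tested. A call needed an adjusted p under 0.05 and at least a 2-fold difference. The fold changes of low genes are understated by the added 0.1.

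Exonic lengths (GENCODE vM21, GRCm38) matched 46319 of 48709 symbols (95.1%). Library totals were the values that made low RPKM whole reads, within 0.1 read, for 95.0% to 96.6% of values in genes with 1 transcript. Whether the authors counted reads or pairs is not given. Exact intervals and the 3-read limits cover counting error only.

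Members and lists were chosen with earlier results of these data known. Named were all 9 members, up to 3 called genes per list and contrast with the largest change, or the 3 highest tested genes where none was called, and the 5 genes most like each member above the minimum. Of the genes this rule gives, *Slc35c2*, *Fuca1*, *Galnt1*, *Galnt2*, *C1galt1c1*, and *Ifngr1*, none of them called, are not described, nor are most cell type markers. Other list genes named (*Fut1*, *Sec1*, *Il22*, *Il17a*, *Il17c*, *Il13*, *Il17ra*, *Slc35c1*, *Cxcl17* levels beside the calls, *Muc2*, *Muc3*, *Muc13*, *Muc5ac*, *Muc5b*, *Spdef*, *Foxa3*, *Clca1*, *Fcgbp*, *Cftr*, *Mpo*, *Elane*, *Cldn4*, and the gastric and intestinal genes) were chosen after their values were seen. The promoter table held 5 of the 9 members. The procedure was tested on simulated data. Alternatives were the values as deposited, quantile normalization, other filters and pseudocounts, no intensity trend, a replicate block, all libraries in 1 fit, an unadjusted p under 0.05, voom on worked-out reads, and leaving out each library.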

Additional observations from a re-analysis of the deposited data

Results flagged for a closer look

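*Muc1* stood out because its change with treatment had opposite signs in the genotypes. The difference of mean scaled RPKM, FAEE-SAP minus saline, was −10.4 in WT mice and 2.51 in cKO mice, and the cKO minus WT difference was −2.80 after saline and 10.1 with FAEE-SAP. The opposite signs depended on the scaling, since as deposited the log2 change with treatment was 0.46 in WT and 0.81 in cKO mice, and the genotype difference was −0.48 after saline and −0.13 with FAEE-SAP. The interaction was tested and did not pass (log2 1.01, SE 0.30, adjusted p = 0.280, limma, 0.144 to 0.514 over 18 alternatives), and was 1.03 without cKO saline replicate 1.

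*Muc6* stood out because its genotype difference in mean scaled RPKM was 0.857 after saline and −0.0255 with FAEE-SAP. The difference between these was not tested. The saline value comes from 375 reads in the cKO saline library with intestinal transcripts, and the other cKO saline library held 1 read.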

How the results depend on the processing

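With 2 libraries per group, each call rests on few samples. Of 3 tested members, 2 were called between the FAEE-SAP genotypes, and the number was 1 with values as deposited, 1 without the intensity trend, 1 with all 8 libraries in 1 model, and 0 without the RPKM filter. It was 0 to 2 when a library was left out, 0 without either WT FAEE-SAP library and 1 without cKO FAEE-SAP replicate 1. The single library left in a group was assumed to vary like the others. With FAEE-SAP in WT mice it was 2, and 0 to 2 when a library was left out, with 0 only without WT FAEE-SAP replicate 2. For the interaction it was 0, and 3 at an unadjusted p under 0.05, 1 with values as deposited, 1 with quantile normalization, 1 at an RPKM of at least 2, 1 with a crossed block, and 0 to 1 when a library was left out, with 1 without cKO saline replicate 2. The cause was not tested.

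Directions reversed for *Muc1* as deposited (−0.13 between FAEE-SAP genotypes, 0.46 with FAEE-SAP in WT mice), for *Pigr* without cKO saline replicate 1 (−0.021 between saline groups, against 1.01 with all libraries and 2.04 without cKO saline replicate 2, and 0.41 with FAEE-SAP in cKO mice, against −0.64 and −1.68), and for the saline difference of *Tff2*, −0.0078, which was 0.0087 without the filter, 0.019 with all 8 libraries, 0.035 without WT saline replicate 2, and 0.14 without cKO saline replicate 2. When a library was left out it ranged from −0.16 to 0.14.

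Over all genes, 140 were called between the FAEE-SAP genotypes, 4427 as deposited, 924 at an unadjusted p under 0.05, 295 with all 8 libraries, 78 with quantile normalization, 57 without the trend, 0 without the filter, and 0 to 114 without a library. With FAEE-SAP in WT mice 755 were called, 7270 as deposited, 1349 at an unadjusted p, 259 without the filter, and 3 to 386 without a library. In cKO mice 5 were called, 280 at an unadjusted p, 15 as deposited or with all 8 libraries, 0 without the filter, and 0 to 5 without a library. For the interaction 8 were called, 791 as deposited, 782 at an unadjusted p, 35 at an RPKM of at least 2, 25 with quantile normalization, 24 with a pseudocount of 1, 3 without the trend, 0 without the filter, and 0 to 3 without a library. Between saline groups 0 were called in limma, 59 at an unadjusted p with the 2-fold minimum, 2 as deposited, 1 with quantile normalization, and 0 with voom.

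Replicate numbers did not establish pairs of mice, since deviations of same-numbered libraries correlated between −0.52 and 0.40. With the replicate block 2 members were called between the FAEE-SAP genotypes, 2 with FAEE-SAP in WT mice, and 0 in the other contrasts, and 568, 442, 52, 0, and 0 genes were called between FAEE-SAP genotypes, in WT mice, in cKO mice, for the interaction, and between saline groups. With the numbers of the WT saline libraries exchanged, a crossed block chosen after seeing the data, 822 genes were called in WT mice, 68 for the interaction, and 0 between saline groups. *Tff1*, *Tff3*, *Muc6*, *Muc20*, and *Agr2* did not reach an RPKM of 0.5 in 2 libraries and had no test.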
